A study of Homo sapiens with 6 samples.

Results

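The genes described here are the laminins, the integrin chains and further basement membrane and integrin-binding proteins, measured in the human renal carcinoma cell line SN12C on 6 Illumina bead arrays. They were chosen by gene symbol: laminin chains (LAMA, LAMB, LAMC), integrin alpha chains (ITGA), integrin beta chains (ITGB), NID1, NID2, HSPG2, AGRN, DAG1, PXDN, ITGB1BP1, ILK, FERMT1, FERMT2 and PTK2. A gene also needed a probe with a detection p-value under 0.05 on 3 or more of the 6 arrays, counted over both arms together. This gave 28 genes with 41 probes, of 11646 genes tested: 6 laminin chains, 9 integrin alpha chains, 5 integrin beta chains, 4 other basement membrane proteins and 4 integrin adaptors and kinases. Of 47 symbols in the current human gene table that fit the rule, the other 19 had no kept probe of their own in the platform annotation. They included LAMA2, LAMA3, LAMA4, LAMB3, LAMB4, ITGA1, ITGA8, ITGA9, ITGA10, ITGAL, ITGAM, ITGAX, ITGB3, ITGB6, ITGB8, NID2, DAG1 and FERMT1, and the 19 are not analysed here.

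The knockdown cells carried 2 doxycycline-inducible pTripz vectors, one with a short hairpin RNA (shRNA) against YAP (YAPsh) and one against TAZ (TAZsh). The control cells carried pTripz without these hairpins. Cells of both arms carried GFP-luc, received doxycycline for 3 days or more and were without serum for the last 24 hours. By its title the study concerns tumor cells that lack NF2, an upstream component of the Hippo pathway, and asks what follows from inhibition of YAP and TAZ, the co-activators which that pathway restrains. Each arm had 3 arrays, which the series calls technical repeats, so every p-value measures the spread between arrays and not between cultures. Whole cultures of 1 cell line were measured, so fewer cells expressing a gene and less RNA per cell cannot be told apart.

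A basement membrane is a thin sheet of matrix under epithelia and around vessels and muscle, built on a network of laminin and a network of type IV collagen. Each laminin is a trimer of an alpha, a beta and a gamma chain. Integrins are receptors made of an alpha and a beta chain that bind laminin, collagen, fibronectin or other ligands outside the cell and, through talin, kindlins and focal adhesion kinase, the actin cytoskeleton inside. In the kidney, the basement membrane of the glomerulus exchanges chains during development: LAMA1 gives way to LAMA5 and LAMB1 to LAMB2.

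Values are log2 normalized intensities of the probe that stands for a gene, and the change is knockdown minus control on that scale, so a change of 1 is a doubling. They compare the arms for 1 gene and give no ranking of genes by amount. YAP1, a target of the hairpins, had values of 7.33, 6.77 and 6.56 on the knockdown arrays, against 8.47, 8.26 and 8.47 on the control arrays. That is a change of -1.51 ± 0.19 (SE; limma, adjusted p = 0.000355). For TAZ, the product of WWTR1, the annotation used here names no kept probe of that gene alone, and its knockdown has no check in these data. Each array detected 19674 to 20971 of 47315 probes, and log2 values over the tested genes correlated at 0.983 or above within an arm and at 0.955 or below between arms. Of markers for renal epithelium and carcinoma, KRT8, KRT18, KRT19, CDH2, VIM and PAX8 were detected on all 6 arrays and EPCAM on 3, while PAX2, CDH1, CA9, LRP2 and CUBN had no kept probe assigned to them alone. Of the 7 tested from that list CDH2 was called higher (2.44-fold) and KRT19 (8.28-fold), KRT8 (2.10-fold) and VIM (1.37-fold) lower. Over all genes tested 39.8% were called. VIM missed the threshold under median scaling (adjusted p = 0.275, within 0.00095 to 0.275). The summed normalized intensity of the 7 was 9506 to 10293 in knockdown cells and 12024 to 13392 in control cells. No endothelial marker of the 4 listed was tested, and of 9 leukocyte markers CD14 and ITGB2 alone were.

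Of the 28 genes, 16 passed an adjusted p of 0.05, 7 of them higher and 9 lower in knockdown cells, or 57.1% called against 39.8% of all genes tested. Over all genes 20.3% were called higher and 19.5% lower. The 28 were set by symbol with earlier results of these data known, so these counts only describe them. Knockdown and control arrays were fully apart for 18 of the 28, against 50.9% of all genes. Changes of 1 or more on the log2 scale that passed the test were found in 7 of the 28, namely PXDN, LAMA1, ITGB2 and ITGA2, which fell, and LAMA5, LAMB2 and ITGB5, which rose, against 8.38% of all genes. The median change was 0.02 over the 28 genes and 0.03 over all genes. Quantile normalization brings all arrays to the same distribution, which keeps the median over all genes small. An exact two-sided permutation test of 3 arrays against 3 cannot give a p under 0.1, and 18 of the 28 genes reached that value.

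**Figure D1:**
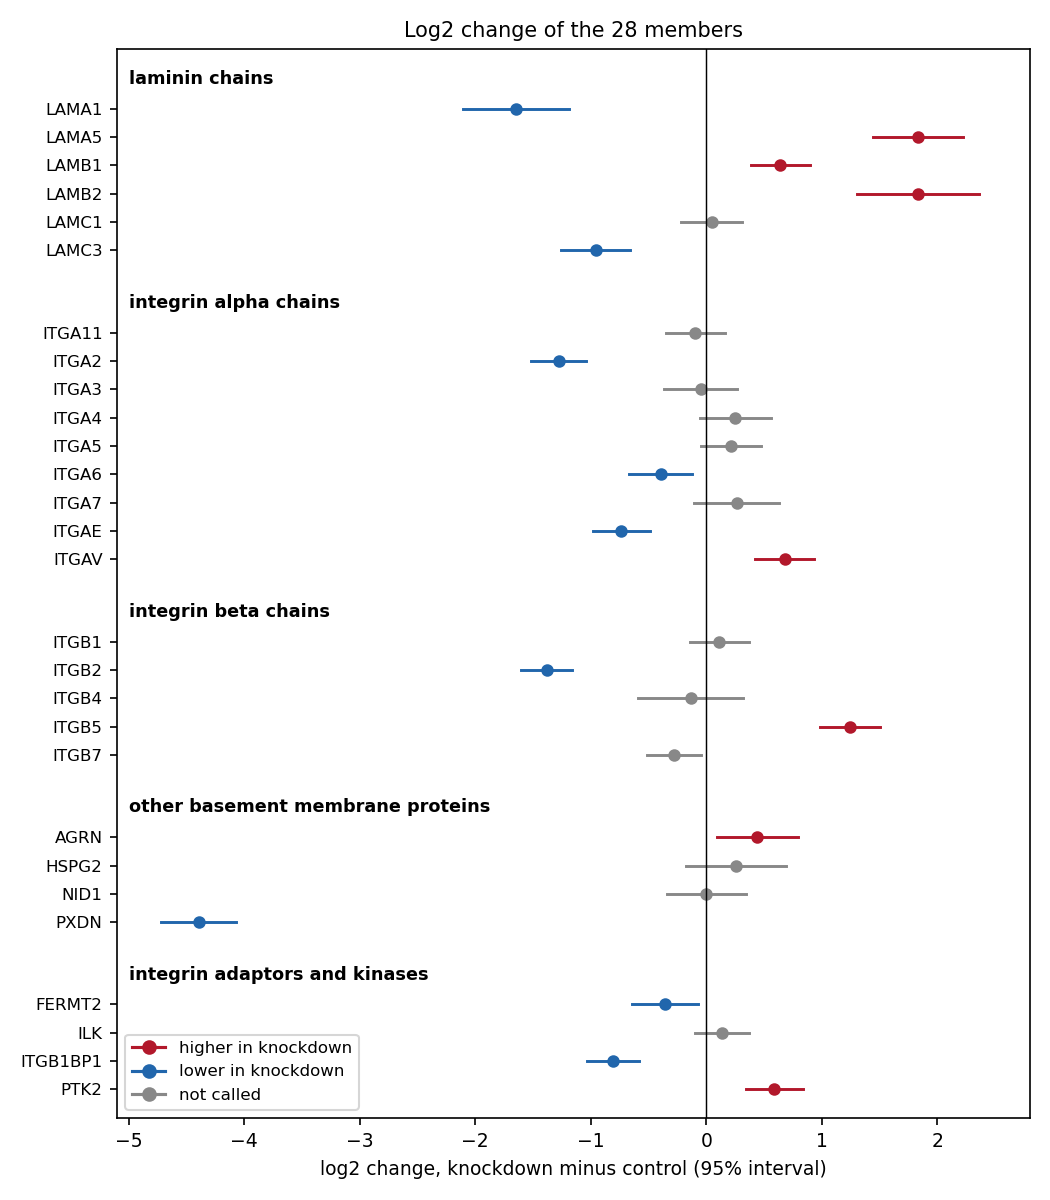
Change of each of the 28 genes in log2 normalized intensity, knockdown minus control, with points at the estimate and lines over its 95% interval. Genes are grouped by class and coloured by the call at an adjusted p under 0.05. PXDN stands alone at -4.40, and LAMA5 and LAMB2 lie together at 1.83.

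Laminin chains changed in 5 of 6 cases, in both directions, where 39.8% of all genes were called. LAMA5 rose 3.57-fold, LAMB2 rose 3.56-fold, LAMB1 rose 1.56-fold, LAMA1 fell 3.14-fold and LAMC3 fell 1.94-fold, while LAMC1 did not pass the test. The median change over the 6 chains was 0.34, against 0.03 over all genes.

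LAMA1, the alpha chain of the laminin of early embryonic basement membranes, had values of 6.52, 6.31 and 6.15 on the knockdown arrays and 8.42, 7.90 and 7.60 on the control arrays. All 3 knockdown arrays lay below all 3 control arrays, and the control arrays spread more widely (SD 0.415, against 0.185 in knockdown cells, n = 3 each). The change was -1.65 ± 0.20 (SE), with an adjusted p of 0.000308. A second LAMA1 probe also fell, by 1.01 on the log2 scale, and was detected on 1 knockdown array and on 3 control arrays.

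LAMA5, the alpha chain that is widespread in adult epithelial basement membranes, gave 12.27, 12.05 and 12.15 on the knockdown arrays and 10.63, 10.40 and 9.94 on the control arrays. The lowest knockdown array stood well above the highest control array. Its change was 1.83 ± 0.17 (SE), with an adjusted p of 6.8e-05. Over 16 other processing settings the rise of LAMA5 lay between 3.09-fold and 3.88-fold.

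LAMB2, the beta chain that marks the mature glomerular basement membrane, gave 10.19, 9.58 and 9.97 in knockdown cells and 8.56, 7.69 and 7.98 in control cells. The arms did not overlap, although both spread more widely than those of LAMA5. The change was 1.83 ± 0.23 (SE), with an adjusted p of 0.000375. LAMB1, the beta chain shared by most laminins of developing tissue, rose as well, by 0.64 ± 0.11 (SE; adjusted p = 0.00211), with means of 9.54 ± 0.124 in knockdown cells and 8.90 ± 0.0864 in control cells (SD, n = 3). Its call ended with median scaling (adjusted p = 0.197, within 0.000239 to 0.197 over the settings), and a second LAMB1 probe changed by 0.41 without passing the test (adjusted p = 0.148).

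Gamma chains differed from each other. LAMC1, the gamma chain of nearly all laminins, averaged 10.79 ± 0.114 in knockdown cells and 10.74 ± 0.129 in control cells (SD, n = 3). Its change of 0.05 had a 95% interval of -0.22 to 0.31, so a change larger than that in either direction lies outside the interval. LAMC3, a gamma chain of restricted distribution, gave 5.63, 5.59 and 5.57 on the knockdown arrays and 6.61, 6.75 and 6.31 on the control arrays. It fell by 0.96 ± 0.13 (SE; adjusted p = 0.000565), and missed the threshold with median scaling alone (adjusted p = 0.0511, within 0.000129 to 0.0511). Without background correction the fall of LAMC3 was 1.37-fold.

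**Figure D2:**
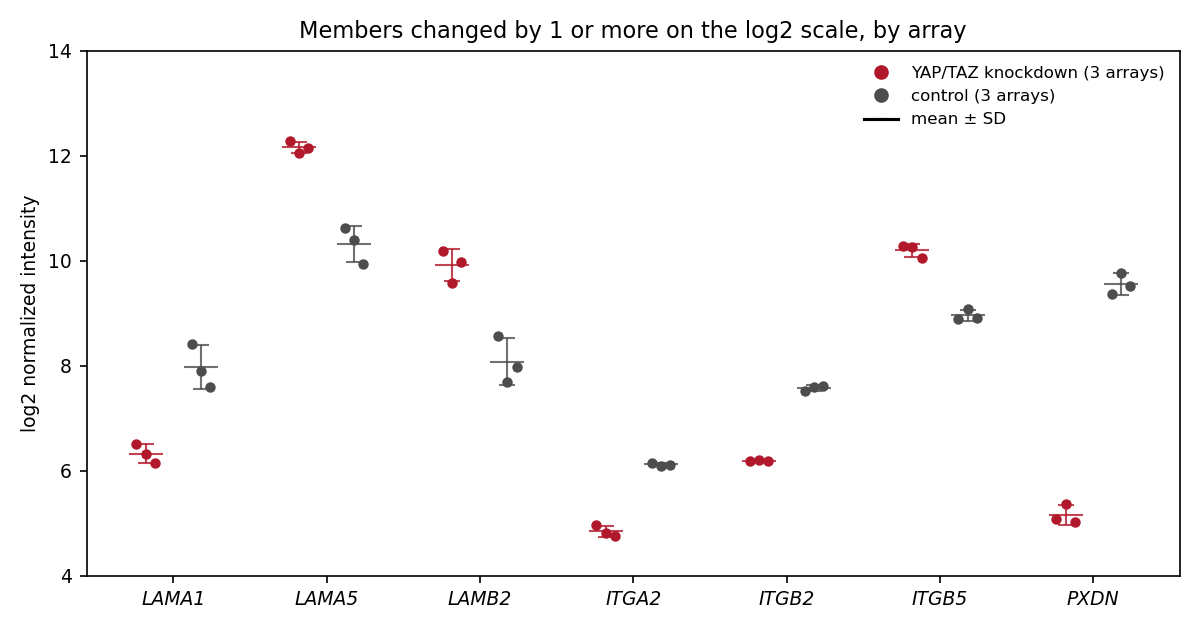
Log2 normalized intensity on each array for the 7 genes that passed the test with a change of 1 or more, knockdown arrays left of control arrays for each gene. Points are single arrays and bars the mean ± SD of 3. The arms do not overlap for any of the 7, and LAMA1 and LAMB2 have the widest spread among control arrays, with SDs of 0.415 and 0.443.

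The sequences before the starts of LAMA5 and LAMB2 are shown because these chains rose by nearly the same amount. TEAD factors, through which YAP and TAZ reach DNA, bind sites that contain GGAATG. AP-1 factors bind TGANTCA, where N is any base. Both strands were searched. Promoter windows of 300 bases, 250 before and 50 after a gene start, came from RefSeq on GRCh38.p14 and were matched for 20 of the 28 genes (26 windows). LAMA1, LAMC3, ITGA3, ITGA7, ITGB2, ITGB4, AGRN and PTK2 had none. In no window did the 2 motifs overlap. GGAATG on either strand was found in 2 of 26 windows, against 14% of the 35116 windows of all genes, and TGANTCA in 1 of 26, against 7.71%. None of the windows of the genes called here held either motif, which says only that these letters are not in these windows. The 250 bases before the start are given 5′ to 3′ on the strand of the gene, with motif letters in capitals where there are any. LAMA5 lies on the minus strand at chr20:62367313-62367562 and LAMB2 on the minus strand at chr3:49133051-49133300.
LAMA5: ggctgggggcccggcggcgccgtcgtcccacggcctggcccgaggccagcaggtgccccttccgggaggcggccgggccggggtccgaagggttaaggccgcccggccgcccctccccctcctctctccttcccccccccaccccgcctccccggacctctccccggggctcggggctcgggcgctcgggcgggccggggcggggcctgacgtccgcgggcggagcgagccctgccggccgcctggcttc
LAMB2: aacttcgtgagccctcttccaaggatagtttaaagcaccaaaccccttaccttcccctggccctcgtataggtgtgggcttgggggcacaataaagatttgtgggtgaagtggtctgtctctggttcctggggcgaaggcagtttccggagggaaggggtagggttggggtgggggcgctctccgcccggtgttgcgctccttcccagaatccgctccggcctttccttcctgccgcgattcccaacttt

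Among the 9 integrin alpha chains 3 fell, 1 rose and 5 did not pass the test, which is 4 of 9 called against 39.8% of all genes. ITGA2 fell 2.42-fold, ITGAE 1.66-fold and ITGA6 1.32-fold, while ITGAV rose 1.60-fold. The median change of the 9 chains was -0.05.

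ITGA2, the alpha chain of a receptor for collagen that pairs with ITGB1, gave 4.96, 4.81 and 4.76 on the knockdown arrays and 6.14, 6.10 and 6.12 on the control arrays. Values within each arm lay close together, with SDs of 0.107 in knockdown cells and 0.0235 in control cells. The change was -1.28 ± 0.10 (SE), with an adjusted p of 3.18e-05. The probe was dim in both arms, and without background correction the fall was 1.39-fold.

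ITGAV, which pairs with several beta chains to bind vitronectin, fibronectin and latent TGF-beta, gave 10.13, 9.91 and 9.92 in knockdown cells and 9.32, 9.38 and 9.21 in control cells. Every knockdown array lay above every control array. It rose by 0.68 ± 0.11 (SE; adjusted p = 0.00156), a call that ended with median scaling alone (adjusted p = 0.196, within 0.000115 to 0.196). ITGAE, known from lymphocytes in epithelia as the partner of ITGB7, averaged 8.45 ± 0.101 in knockdown cells and 9.19 ± 0.0861 in control cells (SD, n = 3). It fell by 0.74 ± 0.11 (SE; adjusted p = 0.000843), and median scaling again was the one setting that ended the call (adjusted p = 0.0927, within 8.29e-05 to 0.0927).

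Of ITGA3, ITGA6 and ITGA7, chains of laminin receptors, ITGA6 alone passed the test. ITGA6 averaged 6.78 ± 0.152 in knockdown cells and 7.17 ± 0.105 in control cells (SD, n = 3), and fell by 0.40 ± 0.12 (SE; adjusted p = 0.0275). That call ended with median scaling (0.495) and without knockdown array 1 (0.0611), knockdown array 3 (0.0983), control array 1 (0.0612), control array 3 (0.108) or both arrays numbered 1 (0.0651), within a range of adjusted p from 0.0221 to 0.495. A second ITGA6 probe changed by -0.29 and did not pass (adjusted p = 0.112). ITGA3 averaged 10.88 ± 0.191 in knockdown cells and 10.92 ± 0.174 in control cells (SD, n = 3), a change of -0.05 with an interval of -0.36 to 0.27, and its second, dim probe gave 0.24. ITGA7, the laminin receptor chain of muscle, was detected on 3 knockdown arrays and on 1 control array and changed by 0.26, with an interval of -0.10 to 0.63.

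Chains that bind fibronectin or collagen completed the group. ITGA5, the fibronectin receptor chain, gave 8.07, 8.14 and 8.30 in knockdown cells and 7.84, 8.06 and 7.97 in control cells. These arms were apart by a narrow margin, and the change of 0.22 (interval -0.04 to 0.47) did not pass the test (adjusted p = 0.172). ITGA4, which binds fibronectin and the vascular adhesion protein VCAM1, changed by 0.25 (interval -0.05 to 0.56), and passed without control array 2 alone (adjusted p = 0.0463, within 0.0463 to 0.692). ITGA11, a collagen receptor chain of mesenchymal cells, changed by -0.10 (interval -0.35 to 0.16).

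Of the 5 integrin beta chains ITGB5 rose 2.36-fold, ITGB2 fell 2.61-fold and 3 did not pass, 2 of 5 called against 39.8% of all genes. The median change was -0.14. ITGB1, the partner of most alpha chains measured here, was among those that did not pass.

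ITGB5, which pairs with ITGAV in a vitronectin receptor, gave 10.29, 10.25 and 10.06 on the knockdown arrays and 8.88, 9.08 and 8.91 on the control arrays. The gap between the arms was far larger than the spread within them. The change was 1.24 ± 0.11 (SE), with an adjusted p of 6.5e-05. Its 2 other probes rose too, by 1.08 and 0.98, so 3 probes of ITGB5 gave 1 direction, and ITGAV and ITGB5 were both higher in knockdown cells.

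ITGB2, the beta chain of the leukocyte integrins, gave 6.18, 6.20 and 6.19 in knockdown cells and 7.52, 7.59 and 7.62 in control cells. Its arrays agreed within each arm to an SD of 0.0104 in knockdown cells and 0.0503 in control cells. The change was -1.38 ± 0.10 (SE), with an adjusted p of 1.43e-05, and a second probe fell by 1.79. The usual alpha partners of ITGB2 (ITGAL, ITGAM and ITGAX) and the leukocyte markers PTPRC, CD3E and LYZ had no kept probe assigned to them alone. The other leukocyte marker tested, CD14, rose by 0.71 ± 0.12 (SE; adjusted p = 0.00171), with median scaling ending that call (adjusted p = 0.123, within 0.000385 to 0.123). The summed normalized intensity of CD14 and ITGB2 was 338 to 397 in knockdown cells and 358 to 375 in control cells. ITGB2 is itself part of that sum. The cultures were of the SN12C carcinoma line, and the cause of the fall of ITGB2 was not tested.

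ITGB1 averaged 12.72 ± 0.112 in knockdown cells and 12.61 ± 0.117 in control cells (SD, n = 3). Its change of 0.11 had an interval of -0.15 to 0.37, and its 2 other probes gave 0.31 and -0.06 without passing the test. ITGB4, the partner of ITGA6 in hemidesmosomes, changed by -0.14 (interval -0.59 to 0.32). ITGB7 gave 4.81, 4.98 and 4.82 in knockdown cells and 5.15, 5.10 and 5.18 in control cells, so the arms did not overlap. Its change of -0.28 missed the threshold (adjusted p = 0.0604) and passed it without a detection filter (0.0447, within 0.0447 to 0.631).

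Promoter windows of 2 integrin chains held the TEAD motif, and neither gene passed the test. ITGA5 had GGAATG at position -82 and TGANTCA at position -6, where the first base of the gene is 0, so that the AP-1 motif runs past the end of the stretch shown. ITGB1 had GGAATG at position -182 of the first of its 2 windows. Both are shown with the TEAD motif in capitals. ITGA5 lies on the minus strand at chr12:54419267-54419516 and ITGB1 on the minus strand at chr10:32958231-32958480.
ITGA5: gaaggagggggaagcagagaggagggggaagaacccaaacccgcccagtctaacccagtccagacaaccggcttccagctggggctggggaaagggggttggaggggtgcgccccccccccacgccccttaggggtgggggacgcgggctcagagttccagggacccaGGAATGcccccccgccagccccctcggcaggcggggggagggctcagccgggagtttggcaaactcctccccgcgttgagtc
ITGB1: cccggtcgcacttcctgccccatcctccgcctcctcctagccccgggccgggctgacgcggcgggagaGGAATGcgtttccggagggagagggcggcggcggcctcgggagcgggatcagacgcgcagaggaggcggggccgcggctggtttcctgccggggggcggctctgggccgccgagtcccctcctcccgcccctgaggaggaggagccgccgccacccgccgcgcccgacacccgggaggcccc

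**Figure D3:**
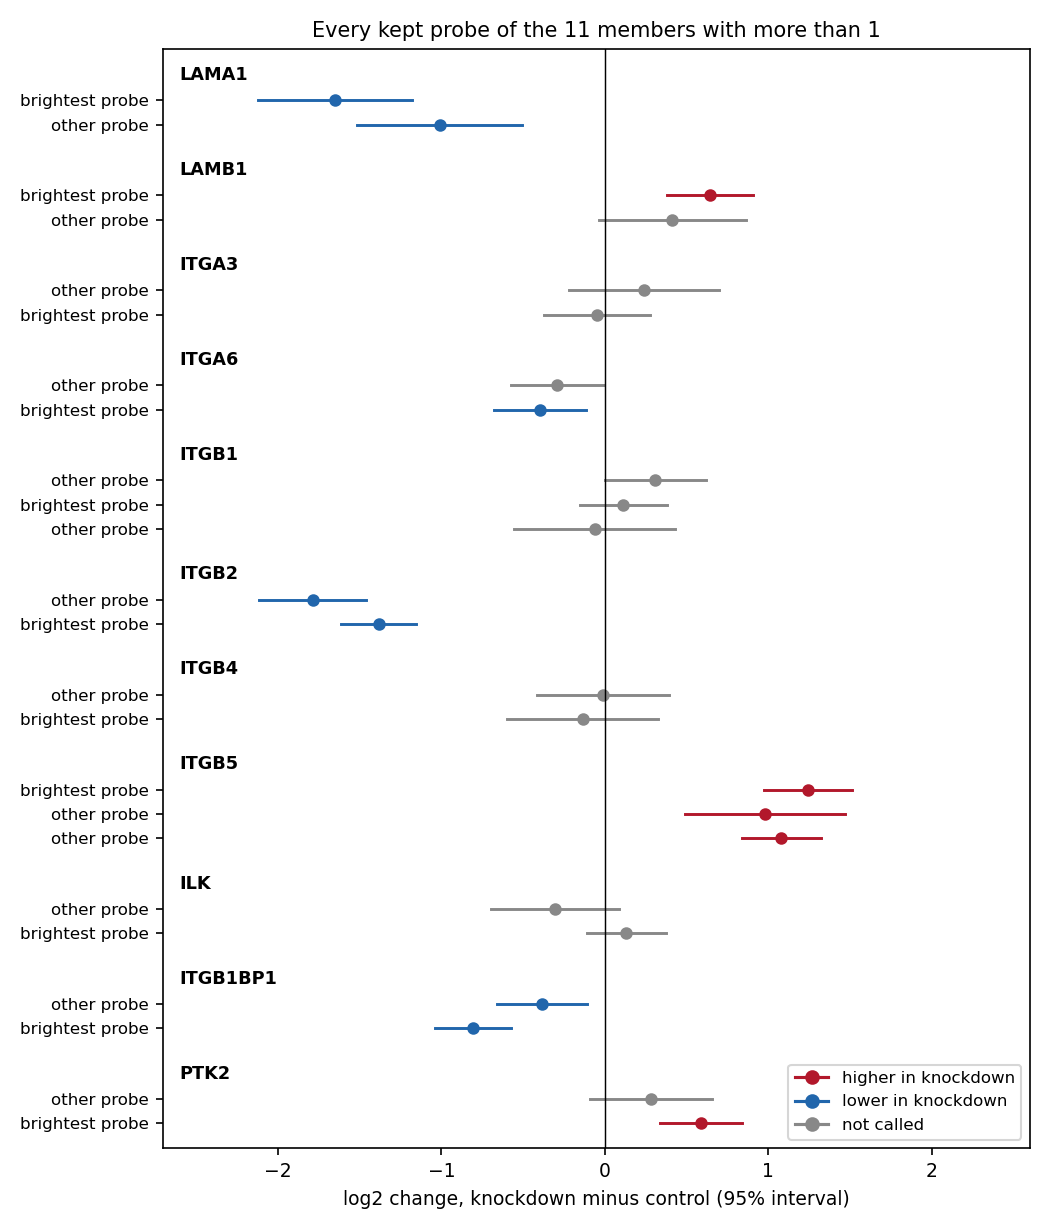
Change in log2 normalized intensity, knockdown minus control, for every kept probe of the 11 genes that had more than 1, with 95% intervals. Calls are from a fit over all 20348 kept probes. Probes share a sign for 8 of the 11 genes, among them LAMA1, ITGB2 and ITGB5, and differ in sign for ITGA3, ITGB1 and ILK, none of which passed the test.

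PXDN had the largest change of the 28 genes. It encodes peroxidasin, a secreted peroxidase that forms the sulfilimine bonds which crosslink the type IV collagen network. It gave 5.08, 5.36 and 5.02 on the knockdown arrays and 9.36, 9.77 and 9.53 on the control arrays, a 21-fold fall. Every knockdown array lay far below every control array. The change was -4.40 ± 0.14 (SE), with an adjusted p of 2.77e-07, and it was 7.38-fold without background correction. The probe was detected on all 3 arrays of both arms. The PXDN window, on the minus strand at chr2:1744516-1744765, is shown because this was the largest fall, and it held neither motif.
PXDN: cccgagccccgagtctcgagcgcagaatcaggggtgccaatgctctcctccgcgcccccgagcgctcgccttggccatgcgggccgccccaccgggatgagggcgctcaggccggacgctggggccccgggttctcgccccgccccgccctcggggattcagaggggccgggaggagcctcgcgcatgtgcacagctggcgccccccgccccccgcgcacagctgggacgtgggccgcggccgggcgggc

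Other structural proteins of the basement membrane moved less. AGRN encodes agrin, a heparan sulfate proteoglycan that binds laminin and dystroglycan. It gave 8.62, 8.15 and 8.67 in knockdown cells and 8.17, 7.96 and 7.98 in control cells. Knockdown array 2 lay just below control array 1, so the arms overlapped, and the rise of 0.44 ± 0.15 (SE) passed narrowly (adjusted p = 0.0481). It missed the threshold with median scaling (0.405), without a detection filter (0.142), without knockdown array 1 (0.111), without knockdown array 3 (0.156) without control array 1 (0.0522), 2 (0.127) or 3 (0.134) and without both arrays numbered 1 (0.056), within a range of 0.0093 to 0.405.

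NID1, nidogen, which links laminin to type IV collagen, averaged 5.34 ± 0.287 in knockdown cells and 5.34 ± 0.0857 in control cells (SD, n = 3). Its change was 0.00 with an interval of -0.34 to 0.34. HSPG2, perlecan, the main heparan sulfate proteoglycan of many basement membranes, lay at the edge of the detection rule, on 2 knockdown arrays and 1 control array. It changed by 0.26, with an interval of -0.18 to 0.69. ITGA7, detected on 4 arrays, was the next gene inside that rule, and probes outside it carry no gene name in the annotation used here.

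Proteins that act on the cytoplasmic side of integrins passed in 3 of 4 cases, against 39.8% of all genes. PTK2, focal adhesion kinase, gave 11.37, 11.25 and 11.29 in knockdown cells and 10.59, 10.78 and 10.79 in control cells, with no overlap. It rose by 0.59 ± 0.11 (SE; adjusted p = 0.00271), with the call ending under median scaling (0.31, within 0.000163 to 0.31). A second, dim PTK2 probe gave 0.28 and did not pass (adjusted p = 0.229).

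ITGB1BP1, a protein that binds the tail of the ITGB1 chain and restrains its activation, gave 9.71, 9.67 and 9.68 in knockdown cells and 10.48, 10.45 and 10.55 in control cells. The arms were clearly apart, and the fall was 1.75-fold (-0.81 ± 0.10 SE; adjusted p = 0.000291). A second probe fell by 0.38.

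FERMT2, kindlin, which activates integrins together with talin, averaged 9.36 ± 0.116 in knockdown cells and 9.72 ± 0.176 in control cells (SD, n = 3). It fell by 0.36 ± 0.13 (SE; adjusted p = 0.0484). The call ended with median scaling (0.512), without a detection filter (0.0951), without any 1 of the knockdown arrays (0.0912, 0.0513 and 0.14 for arrays 1, 2 and 3), and without control array 2 (0.154) or 3 (0.128), within a range of 0.0185 to 0.512. ILK, the integrin-linked pseudokinase, had 1 probe at 0.13 (interval -0.10 to 0.37) and another at -0.30, neither past the test, and so gave no direction.

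Other genes of matrix adhesion, listed apart from the 28, were called in 33 of 55 cases, 14 higher and 19 lower, or 60% against 39.8% of all genes. With median scaling 15 of the 55 were called, against 10.6% of all genes in that setting. Their median change was -0.16. This list was chosen with earlier results of these data known, so its counts, here and by group below, only describe it.

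Basement membrane collagens were tested for 4 of the 8 genes listed, and the 3 type IV chains among them were lower. COL4A1, the chain that forms the common collagen network of basement membranes with COL4A2, fell 4.08-fold, with 7.40, 7.38 and 7.20 in knockdown cells and 9.48, 9.35 and 9.24 in control cells. COL4A2 fell 2.35-fold (1.46-fold without background correction). COL4A5, a chain of the mature kidney network, fell 4.97-fold (1.90-fold without background correction) and was detected on 1 knockdown array and on 3 control arrays. COL18A1, a basement membrane collagen with a heparan sulfate chain, rose 2.28-fold, so all 4 tested collagens of this kind were called, where 39.8% of all genes were. These 3 type IV chains and PXDN, whose product crosslinks type IV collagen, were thus lower in knockdown cells. Of 6 fibroblast and mesenchymal markers 4 were tested and all 4 were called, against 39.8% of all genes. COL1A1, PDGFRB and THY1 fell and LUM rose, while COL1A2 and DCN had no kept probe of their own. COL1A1 was detected on 0 knockdown arrays and LUM on 0 control arrays. Each passed the detection rule only through the arm where it was higher, and each was tested in only 11 of the other settings. Median scaling ended the calls of COL1A1 (0.203, within 0.00174 to 0.203), LUM (0.218, within 0.00288 to 0.218) and THY1 (0.0538, within 1.44e-05 to 0.0538). The summed normalized intensity of the 4 was 816 to 920 in knockdown cells and 1609 to 1683 in control cells. The cultures were of 1 carcinoma cell line, so this sum is not read as a share of fibroblasts. The cause of the fall of the type IV collagens was not tested.

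Adaptors and kinases of focal adhesions fell in 11 of 24 cases and rose in 3, against 19.5% of all genes called lower and 20.3% called higher. Among those that fell, LIMS2 was detected on 0 knockdown and 3 control arrays. It passed the detection rule only through the arm where it was higher. TLN2, which also fell, was detected on 1 knockdown array and 3 control arrays. RSU1 (2.75-fold) and PARVA (2.10-fold), which belong to the complex around ILK, fell, while LIMS1, a core member of it, changed by -0.18 without passing. ACTN1, an actin crosslinker of adhesions, fell 2.53-fold, and FYN, a kinase of the SRC family, 2.23-fold (1.47-fold without background correction). Among hemidesmosome genes PLEC, plectin, alone of 4 was called, against 39.8% of all genes. PLEC rose by 0.44 (adjusted p = 0.0394). It missed the threshold without knockdown array 1 or 3, without control array 2 or 3, and in 3 other settings (0.00692 to 0.334 over all settings).

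Ligands and further receptors went both ways, with 3 of 5 ligands and 4 of 7 other receptors called, against 39.8% of all genes. TNC, tenascin C, a matrix ligand of several integrins, fell 6.90-fold (4.33-fold without background correction). SPP1, osteopontin, rose 2.26-fold (1.32-fold without background correction) and VTN, vitronectin, the ligand of the ITGAV and ITGB5 pair, rose by 0.73 (adjusted p = 0.00871), a call that median scaling ended (0.0787, within 0.00117 to 0.0787). The VTN probe was dim, was detected on 3 knockdown arrays and 1 control array, and rose 1.2-fold without background correction. SDC1, a syndecan of epithelial cells, fell 3.66-fold (1.96-fold with the mean of its probes and 2.30-fold without background correction), while SDC4, the syndecan of focal adhesions, and DDR1, a collagen-binding receptor tyrosine kinase, rose by 0.67 and 0.94. With the mean of its probes DDR1 rose by 0.49 (adjusted p = 0.0435). SDC4 missed the threshold with median scaling (0.177, within 9.39e-05 to 0.177). CD44, a hyaluronan receptor, rose by 0.38 (adjusted p = 0.0213) and missed the threshold with median scaling (0.575), without knockdown array 2 (0.0717), and without control array 1 (0.0672) or both arrays numbered 1 (0.0797), within 0.00261 to 0.575.

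Among membrane partners of integrins 3 of 6 were called, against 39.8% of all genes. CD47, which associates with ITGAV integrins, rose 2.03-fold. CD9, a tetraspanin, changed by -0.31 and SLC3A2, which binds integrin beta tails, by 0.28. Both passed narrowly (adjusted p = 0.0397 and 0.0484), and both missed the threshold when any 1 array was left out, within 0.01 to 0.6 for CD9 and 0.00783 to 0.663 for SLC3A2. Of further basement membrane and laminin-related proteins 4 of 5 were called, against the same 39.8%. FBLN2, fibulin, a laminin-binding matrix protein, rose 2.93-fold, and NTN4, a netrin that binds laminin gamma chains, by 0.73 (0.153 with median scaling, within 0.000532 to 0.153). SPARC, a collagen-binding matricellular protein, fell 2.14-fold. FRAS1, which holds epithelial basement membranes to the tissue below, was detected on 0 knockdown and 3 control arrays. It passed the detection rule only through the arm where it was higher. FRAS1 fell at least 1.43-fold to below detection in knockdown cells (adjusted p = 0.00275 in limma). It left the test without any 1 of the control arrays, without both arrays numbered 1, and when detection on every array was required. Of the 11 other settings that tested FRAS1, median scaling alone ended the call (0.105, within 0.00152 to 0.105).

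**Figure D4:**
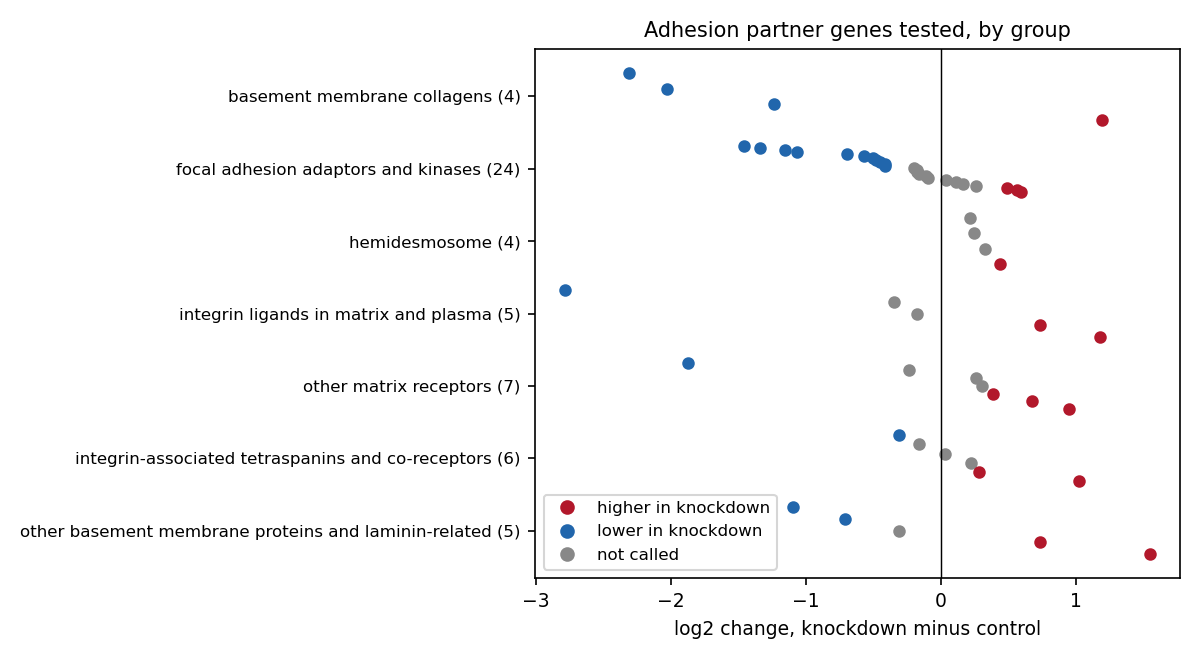
Change in log2 normalized intensity, knockdown minus control, of 55 further genes of matrix adhesion. Rows are groups with the number of genes tested, points are genes coloured by the call, and height within a row only separates points. Basement membrane collagens hold 3 of 4 genes on the lower side, and focal adhesion adaptors 11 called lower against 3 called higher. LIMS2, among the 11, was detected on control arrays only.

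Across the other processing settings the 16 called genes kept their direction. LAMA1, LAMA5, LAMB2, ITGA2, ITGB2, ITGB5, PXDN and ITGB1BP1 also passed the threshold in all 16 settings. LAMB1, LAMC3, ITGAE, ITGAV and PTK2 missed it with median scaling alone, and ITGA6, AGRN and FERMT2 in further settings as given above.

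**Figure D5:**
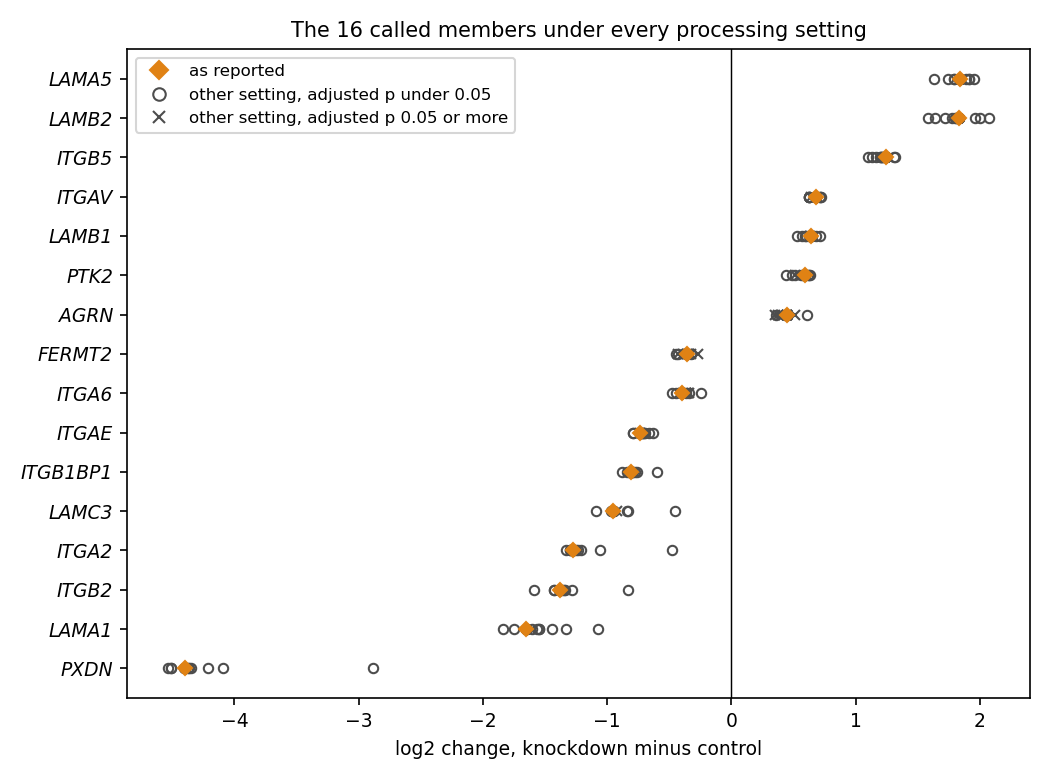
Change in log2 normalized intensity, knockdown minus control, of the 16 called genes as reported (diamonds) and under 16 other processing settings, with circles where the adjusted p was under 0.05 and crosses where it was not. All points of a gene lie on 1 side of 0. The isolated points nearest 0 for PXDN, at -2.88, and ITGA2, at -0.48, are from the setting without background correction.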

How the data were processed

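RNA of SN12C cells was measured on 6 Illumina bead arrays, 3 of knockdown and 3 of control cells. The deposited table gives probe intensity on a linear scale, not normalized, and a detection p-value per probe and array, per the file headers; 887 of its 48202 lines had no identifier and were left out. A deposited log2 table made by the authors holds the 20348 probes detected on at least 3 arrays and differed from the values used here by at most 0.0238, so its scale is log2, uncentred (column medians 6.257 to 6.262). The submitters' processing notes name limma, whose role is not stated there.

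Intensities were corrected by normexp with detection p-values (offset 16), quantile-normalized and brought to log2 (neqc, limma 3.58.1, R 4.3.3). The 20348 kept probes were named from the platform annotation, 15493 with 1 symbol, and the brightest probe stood for each of 11646 genes. Arms were assigned by title and compared with lmFit and eBayes, group as the only term, two-sided, Benjamini-Hochberg adjusted over all genes, called under 0.05. The fit was tested on simulated arrays with few changed genes and independent noise. These data differ in both, so that test does not bear on the calls given here. A fold is 2 to the power of the change, and for a gene detected on 0 arrays of an arm a bound, taken against the lowest detected signal. Precision is limited by the number of arrays.

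Array numbers 1 to 3 recur in each arm. The arrays' departures from their arm's mean correlated at 0.627, 0.27 and 0.467 for same-numbered arrays over 11646 genes, all above 0.1, so a replicate block was tried. The main fit did not use these pairs, and the p-values and shares given above ignore them. With the block 48.3% of all genes were called, against 39.8% without it. Every gene found by the rule is named, and of each group of adhesion genes the up to 4 called genes with the largest change. The members and lists were chosen with earlier results of these data known. The other settings were background correction, scaling, the deposited table, detection filters, probe choice, variance model, the block and leaving out arrays.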

Additional observations from a re-analysis of the deposited data

How the results depend on the processing

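The 16 called members kept their direction under the 16 settings. Median scaling called 3 members higher and 5 lower, 15 adhesion partner genes and 1236 of all genes (10.6%), 44.4% of them higher, against 51.1% as reported; the cause was not tested. With the replicate block 7 members were higher and 9 lower, as without it, and it ended no call of a member, while 48.3% of all genes were called. Leaving out 1 array gave 6 to 7 members higher, 7 to 8 lower, 23 to 30 adhesion partner genes and 3363 to 4220 of all genes. A setting added once the data had been seen left out both arrays numbered 1, and 6 were higher and 8 lower. Some changes that did not pass turned sign, without passing in either direction. LAMC1 gave -0.012 with median scaling and without knockdown array 1, and -0.024 without control array 3. ITGA3 gave 0.096 with the mean of its probes, 0.052 without knockdown array 2 and 0.034 without control array 1. NID1 gave 0.004 without background correction, 0.003 with normexp on the intensities alone, 0.043 with median scaling, 0 with the deposited log2 table, 0.142 and 0.004 without knockdown array 2 and 3, and 0.041 and 0.003 without control array 1 and 3. ITGB4 gave 0.069 without knockdown array 2, and ILK -0.086 with the mean of its probes. EPCAM, detected on 3 arrays, changed by 0.282 as reported and gave -0.199 without knockdown array 2. Over the fits that left out 1 array, LAMC1 lay between -0.024 and 0.104, ITGA3 between -0.14 and 0.052, ITGB4 between -0.277 and 0.069, NID1 between -0.141 and 0.142, and EPCAM between -0.199 and 0.477. HSPG2 left the test without knockdown array 1 or 3, without control array 1, without both arrays numbered 1, and, with ITGA7, when detection on all 6 arrays was required.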
